A study of Mus musculus with 32 samples.

Results

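The mammary gland of wild type FVB mice, an inbred laboratory strain, was profiled at day 17 of pregnancy (4 arrays) and at day 12 (4 arrays). These 8 of the 32 arrays in the series were chosen by their titles, which name the pregnancy day and a normal dietary fat content. According to the design text the dams of the time course ate normal lab chow, and its remaining 12 arrays come from lactation days 1, 2 and 9, with 4 each. The title of the series puts its subject as metabolism and lipid synthesis of the lactating gland, and tissues of other mice moved to diets with set soy oil contents in lactation were not used here. Every array carried labelled RNA from a tissue sample homogenised and extracted individually, so each value is an average over all cell types of the gland. The labels state no age, parity or litter of the dams, nor do they state that each sample came from a different mouse. The p-values therefore measure the spread between samples of the time course, which are not known to be different mice.

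Mammary alveoli form in the first part of mouse pregnancy, when ductal and alveolar cells divide under progesterone, prolactin, RANK ligand and growth factors. In the second part the alveolar cells turn on milk protein genes and store lipid droplets, a step called secretory differentiation, while the fall of progesterone around birth starts secretory activation and copious milk. Prolactin acts through the kinase JAK2 and the transcription factor STAT5, which binds a palindrome of the form TTCNNNGAA in the promoters of milk protein genes.

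The values are log2 intensities of probe sets, and a difference of 1 on this scale is 2-fold. A gene was called when its adjusted p was under 0.05 in a limma fit of the 20 time course arrays. That fit pools the spread of a probe set over all 5 stages, so SE and adjusted p do not measure the spread at days 12 and 17 alone. The milk protein gene Lalba had an SD of 1.57 at day 12, 0.44 at day 17 and 0.06 at lactation day 2. A fit of the 8 arrays alone called 827 probe sets as higher and 1667 as lower. Tests covered 7189 probe sets, and 45.1% of them were called: 1322 (18.4%) rose by day 17 and 1923 (26.7%) fell. A change of 2-fold or more was called upward in 223 (3.1%) and downward in 544 (7.57%). Of 5482 genes, each taken as its brightest probe set, 45.5% were called, 916 (16.7%) as higher and 1577 (28.8%) as lower, and in 2084 (38%) the 4 arrays of one day did not overlap the 4 of the other. The median change was -0.02 over all tested probe sets and -0.06 over all tested genes. Higher probe sets made up 40.7% of the calls, against 51.5% after quantile normalization and 72.8% after setting the ribosomal protein genes equal, which moved the median of all probe sets to 0.24. All directions given below are relative to the deposited normalization. List counts given below are to be read beside the 16.7% of genes called higher and the 28.8% called lower. A probe set was tested if the mean of any of the 5 stages reached 4.22, so a gene can be tested through its high stage alone. Named genes that reached 4.22 only at day 12 include Tnfsf11, Cd68, Vwf, Rpl22, Irf4, Isg15, Pold1, Kif11, Nnmt and Trp63. Where the mean of a day lies under 4.22, the size of a change and its rank are estimates against a near-background reading and not exact.

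The arrays of the 2 days differed in 1 of the controls for RNA length more than in the others. The pyruvate carboxylase transcript is read at its 3′ end and its 5′ end, and the 3′ signal exceeded the 5′ signal by 4.74 to 7.37 (log2) in the day 12 arrays and by 3.07 to 3.54 at day 17, so less 5′ signal was obtained at day 12. The 5′ probe set read 2.91, 3.72, 5.31 and 3.27 in day 12 replicates 1 to 4 and 6.96 to 7.62 at day 17. Within day 12, replicates 1 and 4 had the lowest 5′ signal. The other controls of this kind differed less: the 3′ signal exceeded the 5′ signal by 1.61 to 1.77 at day 12 and 1.24 to 1.58 at day 17 for Actb, and by 0.08 to 0.90 and 0.16 to 0.36 for Gapdh, whose ranges overlap. Actb did not set day 12 replicates 1 and 4 (1.75 and 1.77) apart from replicate 2 (1.76). Gapdh did, with 0.90 and 0.58 in replicates 1 and 4 and 0.37 and 0.08 in replicates 2 and 3. Another pyruvate carboxylase probe set read 2.60 and 3.12 in replicates 1 and 4 and 5.63 and 6.47 in replicates 2 and 3. With day 12 represented by replicates 2 and 3 only, 936 probe sets were higher and 1611 lower. Array medians lay between 16.9 and 17.9 intensity units, correlations within a day between 0.973 and 0.989, and those between the days from 0.918 to 0.943. Alveolar and luminal genes marked the samples as mammary epithelium in every array: the luminal keratin Krt18 read 9.93 to 10.49 at day 12 and 10.03 to 10.38 at day 17, and Elf5, a transcription factor of the alveolar lineage, 10.69 to 11.16 and 10.90 to 11.46.

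Milk protein genes were higher at day 17 than at day 12. Of 16 listed casein and whey protein genes, 14 had a probe set and 14 were tested; 13 were higher, 1 was lower and the median change was 1.07, against -0.06 for all tested genes. In 14 of the 14 the arrays of the 2 days did not overlap, beside 38% of all tested genes. The rises ran from 0.35 for Csn1s1 to 5.58 for Csn1s2b.

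The promoters of these genes are shown because prolactin signalling through TTCNNNGAA is the textbook route to their transcription. Windows from 250 bases before to 50 bases after the start site were searched in the RefSeq promoter table of build GRCm38.p6. The motif is its own reverse complement, so a single search covers both strands. It was found in 5 of 12 genes of the list that have a window (Csn1s1, Csn1s2a, Csn2, Glycam1 and Pigr), and in 8.3% of all 32851 windows and 358 (8.1%) of 4419 tested genes. In 3 of the 5 the match lay upstream of the start site, and the 150 bases before the start follow, 5′ to 3′ on the strand of the gene, with the match in capitals. The Glycam1 stretch is chr15:103565082-103565231 (minus strand), that of Csn2 chr5:87699426-87699575 (minus strand) and that of Csn1s1 chr5:87666058-87666207 (plus strand).
Glycam1: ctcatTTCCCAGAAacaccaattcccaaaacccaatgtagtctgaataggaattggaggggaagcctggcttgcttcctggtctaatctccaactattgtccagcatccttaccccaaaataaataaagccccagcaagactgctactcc
Csn2: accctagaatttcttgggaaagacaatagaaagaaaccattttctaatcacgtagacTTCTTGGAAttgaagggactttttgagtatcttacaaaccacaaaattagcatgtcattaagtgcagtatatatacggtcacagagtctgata
Csn1s1: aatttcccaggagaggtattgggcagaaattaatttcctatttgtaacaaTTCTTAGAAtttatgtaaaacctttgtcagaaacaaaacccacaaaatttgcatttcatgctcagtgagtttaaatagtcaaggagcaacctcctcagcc
Counted from the start site, the match begins at base -145 in Glycam1, -93 in Csn2 and -100 in Csn1s1. In Csn1s2a and Pigr it lay after the start, as TTCTTAGAA and TTCCTGGAA. A match is a description of these letters and shows no binding.

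Csn1s1, which encodes alpha-S1 casein, read 14.81, 14.66, 14.79 and 14.65 in the day 12 arrays and 15.14, 15.17, 15.05 and 14.96 at day 17. The arrays did not overlap, and the gene rose by 0.35 (SE 0.08, limma adjusted p = 0.00157), but after quantile normalization the change was -0.11 (adjusted p = 0.458). Csn2, beta casein, went from 13.48 ± 0.18 (mean ± SD) to 13.90 ± 0.10, a change of 0.42 (adjusted p = 0.0019). Csn1s2a, an alpha-S2 casein, rose by 0.63, Glycam1, a mucin-like whey protein, by 0.71 and Csn3, the kappa casein that caps the micelle, by 0.84. In linear terms Csn1s1 rose 1.28-fold and Csn3 1.79-fold, and the 4 day 17 arrays of each of these casein genes lay above its 4 day 12 arrays. Csn1s1 read close to the upper end of the scale (the highest intensity in the 20 arrays was 58520.1 units). Saturation was not tested, so the size of its rise is not exact.

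Wap, the whey acidic protein, read 14.93, 13.94, 13.62 and 14.48 at day 12 and 15.77, 15.72, 15.66 and 15.72 at day 17. Its rise was 1.48 (SE 0.18, adjusted p = 2.58e-06), and the SD was 0.58 among the day 12 arrays and 0.04 among those of day 17. At day 17 Wap read close to the upper end of the scale. Saturation was not tested, so its rise and its day 17 SD are not exact. Lalba, alpha-lactalbumin, which turns galactosyltransferase into lactose synthase, read 10.19, 7.82, 6.68 and 9.37 at day 12 and 11.07, 10.20, 10.56 and 11.11 at day 17. It rose by 2.22 (SE 0.47, adjusted p = 0.000806), with replicate 1 of day 12 just under the lowest day 17 array. Csn1s2b, the second alpha-S2 casein, read 5.54, 3.65, 3.83 and 4.77 at day 12 and 10.72, 10.00, 9.44 and 9.98 at day 17. It rose by 5.58 (SE 0.31, adjusted p = 2.31e-10), and since day 12 replicates 2 and 3 lay under the line of 4.22, the size of this rise is not exact.

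Secreted defence and digestive proteins of milk rose as well. Cel, the bile salt-stimulated lipase of milk, rose by 3.40 to 12.24 ± 0.27, and Ltf, the iron-binding lactoferrin, by 3.21 to 11.50 ± 0.23. Pigr, the receptor that carries immunoglobulin A into milk, read 9.52, 8.00, 7.60 and 9.73 at day 12 and 11.10, 10.94, 10.25 and 11.04 at day 17, a rise of 2.12 (adjusted p = 9.58e-05). Wfdc18 rose by 0.95 (adjusted p = 1.35e-06). Egf, the growth factor found in milk, was called at a low level, 3.16 at day 12 and 4.35 at day 17, and read 10.78 at lactation day 9. The member that fell was Slpi, the secretory leukocyte protease inhibitor, from 9.63 ± 0.29 to 7.94 ± 0.07, a change of -1.69 (adjusted p = 6.62e-07).

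The day 12 arrays were not alike in these genes. In 9 of the 14 milk protein genes both replicates 1 and 4 read above both replicates 2 and 3, and in 1 (Slpi) both read below; over all 5482 tested genes the shares were 24.8% above and 21.8% below. In 7 of 10 milk fat globule genes replicates 1 and 4 were above and in 0 below. These are the arrays with the lowest 5′ signal of pyruvate carboxylase, and the part of RNA length in this order was not tested.

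**Figure D1:**
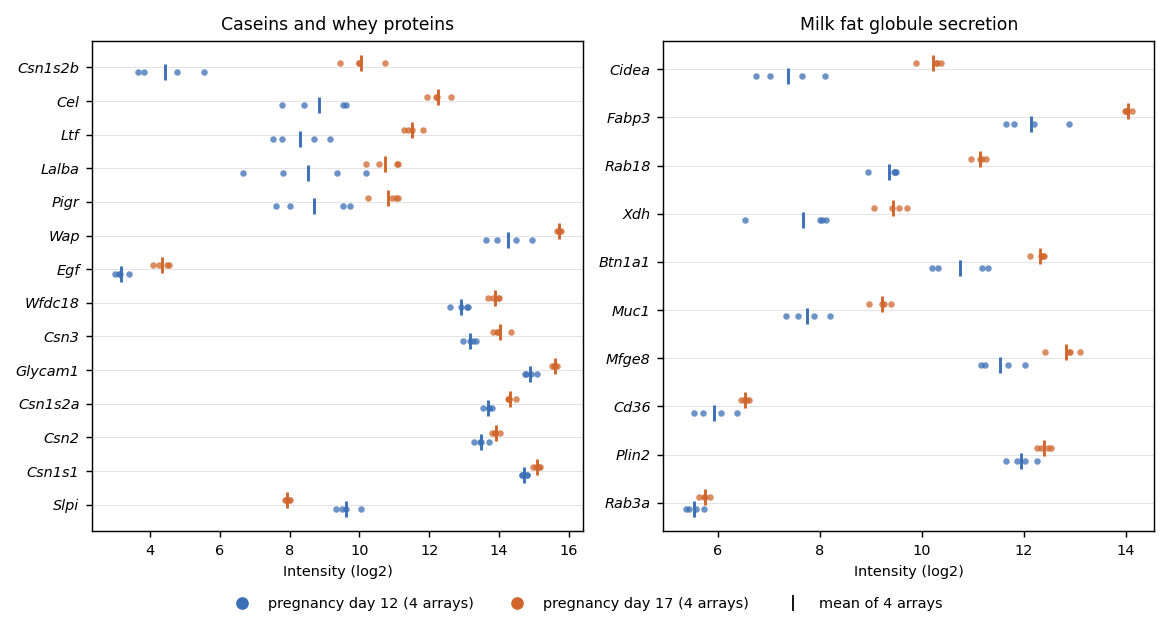
Log2 intensity (horizontal axis) of each tested gene (rows) in the 4 arrays of pregnancy day 12 and the 4 of day 17, with the mean of each day as a bar; levels of different genes cannot be compared. The casein with the largest estimated change was Csn1s2b, 5.58, and Slpi was the gene with the reverse order of days.

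Genes of milk fat globule secretion, by which lipid droplets leave the cell wrapped in membrane, rose together. Of 12 listed genes 10 were on the array and tested, 9 were higher and 0 lower, and the median change was 1.51. Btn1a1, butyrophilin, the main protein of the globule membrane, read 11.30, 10.32, 10.20 and 11.17 at day 12 and 12.12, 12.33, 12.39 and 12.38 at day 17, a rise of 1.56 (SE 0.18, adjusted p = 1.69e-06). Xdh, xanthine oxidoreductase, its partner at the membrane, read 8.11, 8.00, 6.53 and 8.05 at day 12 and 9.56, 9.06, 9.42 and 9.70 at day 17. It rose by 1.76 (adjusted p = 2.37e-05), with replicate 3 standing far below the other day 12 arrays. Cidea, which fuses lipid droplets and is also a brown fat gene, read 8.09, 6.74, 7.65 and 7.02 at day 12 and 10.28, 10.38, 9.88 and 10.30 at day 17. Its rise of 2.83 (SE 0.20, adjusted p = 3.96e-09) is 7.13-fold, and the brown fat gene Ucp1 stood at 5.00 on day 12 and 4.60 on day 17 (change -0.41, adjusted p = 0.555). Fabp3, a fatty acid carrier, rose by 1.91, Rab18, a droplet GTPase, by 1.78, Muc1, an apical mucin, by 1.46 and Mfge8, lactadherin, by 1.30. Plin2, the droplet coat protein, rose by 0.46 (adjusted p = 0.004) with overlapping arrays. Rab3a, a secretory GTPase, was the gene not called (0.21, adjusted p = 0.272).

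For enzymes that make fatty acids the count depended on the processing. Of 13 tested genes of fatty acid synthesis, 3 (23.1%) were higher and 1 (7.69%) lower, with a median of 0.17, beside 16.7% and 28.8% of all tested genes. The number higher was 5 without day 12 replicate 2, 6 (median 0.37) with ribosomal protein genes set equal and 7 (median 0.46) with the mean over the probe sets of a gene. Fasn, fatty acid synthase, read 12.66, 12.59, 12.28 and 12.29 at day 12 and 12.91, 12.52, 12.67 and 12.91 at day 17. The change was 0.30 (SE 0.15, adjusted p = 0.12), and the arrays overlapped. Acly, which makes cytosolic acetyl-CoA, differed by 0.06 (SE 0.12, adjusted p = 0.732) and Thrsp, a lipogenic protein of mammary cells, by -0.03 (SE 0.18, adjusted p = 0.908). Scd1, the stearoyl-CoA desaturase, differed by 0.17 (SE 0.20, adjusted p = 0.503) on its brightest probe set and by 0.76 (adjusted p = 0.000186) on another. The genes that rose were Fads1, a desaturase of long polyunsaturated fatty acids (1.07, adjusted p = 2e-06), Elovl1, an elongase (0.81, adjusted p = 0.000451), and Me1, malic enzyme (0.52, adjusted p = 0.0357). The call of Me1 was lost without day 12 replicate 3 or 4 or without day 17 replicate 1, 3 or 4 (adjusted p from 0.0615 to 0.14). Dbi, which binds acyl-CoA in the cytosol, fell by 0.33 (adjusted p = 0.0309), a call lost without replicate 1 or 2 of either day (adjusted p from 0.0689 to 0.0859).

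Srebf1, the transcription factor SREBP1 that drives lipogenic genes, fell. It read 10.18, 10.13, 9.99 and 10.26 at day 12 and 9.20, 9.42, 9.58 and 9.52 at day 17, a change of -0.71 (SE 0.18, adjusted p = 0.00386) with no overlap. At lactation days 1, 2 and 9 it averaged 10.47, 10.64 and 10.59, above both pregnancy days. Pparg, the adipogenic nuclear receptor, fell by 1.71 and Nr1h3, the liver X receptor alpha, by 0.78, while Rxra, their partner receptor, rose by 0.89. Of 9 lipid regulators on the array 5 were tested, with 1 higher, 3 lower and a median of -0.71, which was 0.48 when ribosomal protein genes were set equal and 7 were tested. With no filter on low values all 9 were tested, 4 rose and 3 fell, and the median was 0.23. The direction of this list therefore depended on the filter. Pparg is also counted among the adipocyte markers, and the part of fat tissue in the falls of Srebf1, Pparg and Nr1h3 was not tested. Mlx, a partner of the carbohydrate response factor, differed by 0.35 (adjusted p = 0.0646).

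Other steps of lipid supply were split. In fatty acid uptake and binding 6 of 11 genes rose and 2 fell (median 0.25). Lpl, lipoprotein lipase, which frees fatty acids from blood lipid, rose by 0.55 (adjusted p = 0.00392) on its brightest probe set and by 2.31 (adjusted p = 1.61e-09) on another, Acsl4, an acyl-CoA synthetase, rose by 1.46 and Cd36, a fatty acid receptor, by 0.61. Lrp1, a lipoprotein receptor, fell by 1.67 and Slc27a1, a fatty acid transporter of adipocytes and muscle, by 0.89. In triglyceride synthesis 1 of 8 tested genes rose and 4 fell (median -0.31); 2 fell without day 12 replicate 2, and 2 fell and 3 rose after quantile normalization. Agpat1, an acyltransferase, rose by 1.21, while Gpam, the glycerol phosphate acyltransferase of mitochondria, fell by 0.84, Gpd1 by 0.70 (0.08 and not called on another probe set) and Dgat1, the last enzyme of the pathway, by 0.47 (adjusted p = 0.0152, and 0.0642 without day 12 replicate 2). Agpat3 fell by 0.35 (adjusted p = 0.022), which was not called without day 12 replicate 2 (0.0788) or day 17 replicate 4 (0.0792). Lpin1, lipin, stood 0.62 higher (adjusted p = 0.0596).

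In cholesterol synthesis 4 of 16 genes (25%) rose and 2 (12.5%) fell (median 0.09), beside 16.7% and 28.8% of all tested genes. Without single arrays 3 to 4 rose. Hsd17b7 rose by 1.34, Sc5d by 0.64 and Mvd by 0.58, and Nsdhl fell by 1.56, enzymes of the sterol pathway. Hmgcs1, the enzyme at the pathway's entry, fell by 1.01 (adjusted p = 0.017), and that call was lost without day 12 replicate 2 (0.0667) or day 17 replicates 1 (0.0546) or 2 (0.0505). The call of Mvd (adjusted p = 0.0329) was lost in 5 of 8 fits that left out a single array, those without day 12 replicates 1, 2 or 3 and day 17 replicates 1 or 2, with adjusted p from 0.0563 to 0.0862. In the same fit, lactation day 2 exceeded pregnancy day 17, a comparison that shares the day 17 arrays, in 12 of 16 cholesterol genes and 11 of 13 fatty acid synthesis genes, where 24.2% of all tested genes were higher and 25.4% lower.

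Genes of fatty acid breakdown were lower at day 17. Of 20 tested genes of beta oxidation 12 fell and 0 rose, with a median of -0.49. Cpt1a, which admits long fatty acids to mitochondria, read 7.97, 7.61, 7.80 and 7.91 at day 12 and 5.95, 6.84, 5.73 and 5.61 at day 17. It fell by 1.79 (SE 0.25, adjusted p = 1.19e-05), all day 17 arrays being lower. Decr1 fell by 1.23, the electron transfer genes Etfdh and Etfa by 1.07 and 0.92, and Hadhb, of the trifunctional protein, by 0.80. Acadm (-0.34, adjusted p = 0.0525) and Hadh (-0.28, adjusted p = 0.17) were not called. In pyruvate use and the citric acid cycle 9 of 22 genes fell and 3 rose (median -0.32). The isocitrate dehydrogenases Idh1 and Idh2 fell by 1.07 and 0.77 and the succinate dehydrogenase subunits Sdha and Sdhc by 0.77 and 0.74, while Dlat, a subunit of pyruvate dehydrogenase, rose by 0.91 and, on another probe set, by 0.31. Adipocytes also burn fatty acids, and the summed intensity of 16 adipocyte markers went from 15330 to 26110 at day 12 to 8969 to 9870 at day 17. The part of fat tissue in the fall of these genes was not tested. In bulk tissue fewer cells of a type and less RNA per cell cannot be told apart.

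Genes of lactose synthesis rose, and most glycolysis genes were not called. In the lactose and sugar nucleotide list 6 of 9 genes (66.7%) rose and 1 (11.1%) fell (median 0.48). In glycolysis 2 of 14 (14.3%) rose and 2 (14.3%) fell (median 0.06), no larger shares than the 16.7% and 28.8% of all tested genes. Slc2a1, the glucose transporter GLUT1, counted in both lists, read 5.53, 4.63, 4.27 and 5.35 at day 12 and 6.20, 6.01, 6.49 and 6.09 at day 17. It rose by 1.25 (SE 0.21, adjusted p = 0.000106) without overlap. B4galt1, the galactosyltransferase of lactose synthase, rose by 0.90 (adjusted p = 0.00246), and Pgm1, a phosphoglucomutase, fell by 0.72. Pgm2 rose by 0.59 (adjusted p = 0.0324) and lost its call without day 12 replicates 1 or 4 or day 17 replicates 3 or 4 (adjusted p from 0.0696 to 0.125). In glycolysis the liver-type phosphofructokinase Pfkl rose by 0.46, and the platelet-type and muscle-type forms Pfkp and Pfkm fell by 0.98 and 0.30. Hk1, hexokinase, differed by 0.14 and Ldha, lactate dehydrogenase, by -0.09, neither called.

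Most tested genes of milk ion and metal transport rose. Of 16 ion and metal transport genes on the array 11 were tested, and 7 rose and 0 fell (median 0.58). Slc34a2, a phosphate transporter of the apical membrane, read 6.33, 4.93, 4.61 and 5.87 at day 12 and 8.48, 8.40, 8.16 and 8.27 at day 17. It rose by 2.89 (SE 0.26, adjusted p = 7.17e-08), and lactation day 2 stood a further 3.74 higher. Slc12a2, the sodium, potassium and chloride cotransporter, rose by 1.41 and was 1.15 lower again at lactation day 2 than at day 17. Slc39a8, a zinc and manganese importer, rose by 1.12. Not called were Slc9a3r1 (0.04, adjusted p = 0.82) and, on its brightest probe set, Atp2c1 (0.52, adjusted p = 0.0577). Another probe set of Atp2c1 rose by 0.39 (adjusted p = 0.00978). The metallothionein genes Mt1 and Mt2, which bind zinc and copper, rose by 0.80 (adjusted p = 0.0412) and 1.16 (adjusted p = 0.0053) with overlapping arrays, and the call of Mt1 was lost without day 12 replicates 2 or 3 or day 17 replicates 1, 2 or 3 (adjusted p from 0.0601 to 0.159). Abcg2, which exports riboflavin and drugs into milk, read 9.00, 9.01, 8.59 and 8.18 at day 12 and 11.28, 11.31, 11.82 and 11.52 at day 17, a rise of 2.79 (adjusted p = 2.23e-09).

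Amino acid transporters moved both ways. Of 10 on the array 7 were tested, with 3 higher, 1 lower and a median of 0.46. Slc1a4, a transporter of neutral amino acids, rose by 1.09, Slc7a5, the large neutral amino acid exchanger, by 0.64 and Slc7a7 by 0.62. The call of Slc7a7 (adjusted p = 0.0153) was lost without day 12 replicate 2 (0.0513) or day 17 replicate 4 (0.0617). Slc1a5, a glutamine transporter used by dividing cells, fell by 1.59 (adjusted p = 7.15e-05). Slc38a2 (0.08) and Slc3a2 (0.46, adjusted p = 0.0594) were not called.

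Some genes of the early secretory pathway rose, and some counts moved with the arrays used. Of 30 genes of translocation into the endoplasmic reticulum and folding on the array 25 were tested, and 9 (36%) rose and 0 fell (median 0.28). Over all tested genes 16.7% rose. With day 12 replicates 2 and 3 only, 5 genes of the list rose, in a fit that also had fewer higher probe sets in all (936 against 1322). Dnajc3, a cochaperone that restrains the kinase PERK, read 7.29, 6.77, 7.24 and 7.10 at day 12 and 9.35, 9.28, 9.20 and 9.45 at day 17, a rise of 2.22 (SE 0.18, adjusted p = 2.69e-08); 2 other probe sets gave 1.32 and, not called, 0.51. The translocon genes Sec63, Ssr1 and Sec61b rose by 1.21, 0.96 and 0.78, and Dad1, of the oligosaccharyltransferase, by 0.78, though another probe set of Ssr1 gave 0.06 (adjusted p = 0.858). The abundant chaperone Hspa5, BiP, differed by 0.28 (adjusted p = 0.378). Among 9 tested regulators of the unfolded protein response 6 rose and 0 fell (median 0.51). Xbp1, the factor that expands the secretory apparatus, read 10.88, 10.87, 10.49 and 10.73 at day 12 and 11.27, 11.62, 11.92 and 11.53 at day 17, a rise of 0.84 (SE 0.17, adjusted p = 0.000557). Trib3 rose by 0.82, Eif2ak3, PERK itself, by 0.70, Atf6 by 0.55 and Edem1 by 0.51. The stress marker Herpud1 stood at -0.22 (adjusted p = 0.416).

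In the Golgi and vesicle list 7 of 26 genes (26.9%) rose and 2 (7.69%) fell (median 0.15), beside 16.7% and 28.8% of all tested genes. Without day 12 replicate 3 or without day 17 replicate 2, 4 rose, a share near that of all genes. Rab6a, a Golgi GTPase, rose by 1.43, Sec23b, of the COPII coat, by 0.99, the fusion proteins Snap23 and Gosr2 by 0.68 and 0.44, and Arf5 fell by 0.80. Of 18 tested cytosolic ribosomal protein genes 7 (38.9%) fell and 2 (11.1%) rose (median -0.15), beside 28.8% and 16.7% of all tested genes. Of 26 respiratory chain genes 5 (19.2%) fell and 4 (15.4%) rose, no larger shares than those over all genes. Their median was -0.07, and 0.14 when the ribosomal protein genes were set equal, a scaling that fixes the ribosomal list itself near 0. Of the respiratory genes 1 fell without day 12 replicate 2, and 3 without day 12 replicate 4 or without any single day 17 array other than replicate 3. Rpl22 fell by 1.68, from 5.61 at day 12 to 3.92 at day 17, which lies under the line of 4.22, so the size is not exact. Its probe set is dim beside the ribosomal medians of 11.77 to 12.06 in these arrays. Rps18 fell by 0.44, and the ribosomal stalk gene Rplp0 differed by 0.01 (adjusted p = 0.942), or by -0.39 (adjusted p = 0.00705) after quantile normalization. Cox4i1, a subunit of cytochrome oxidase, rose by 0.83, Uqcrc2 by 0.74, and Ndufs1, of complex I, fell by 0.69.

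**Figure D2:**
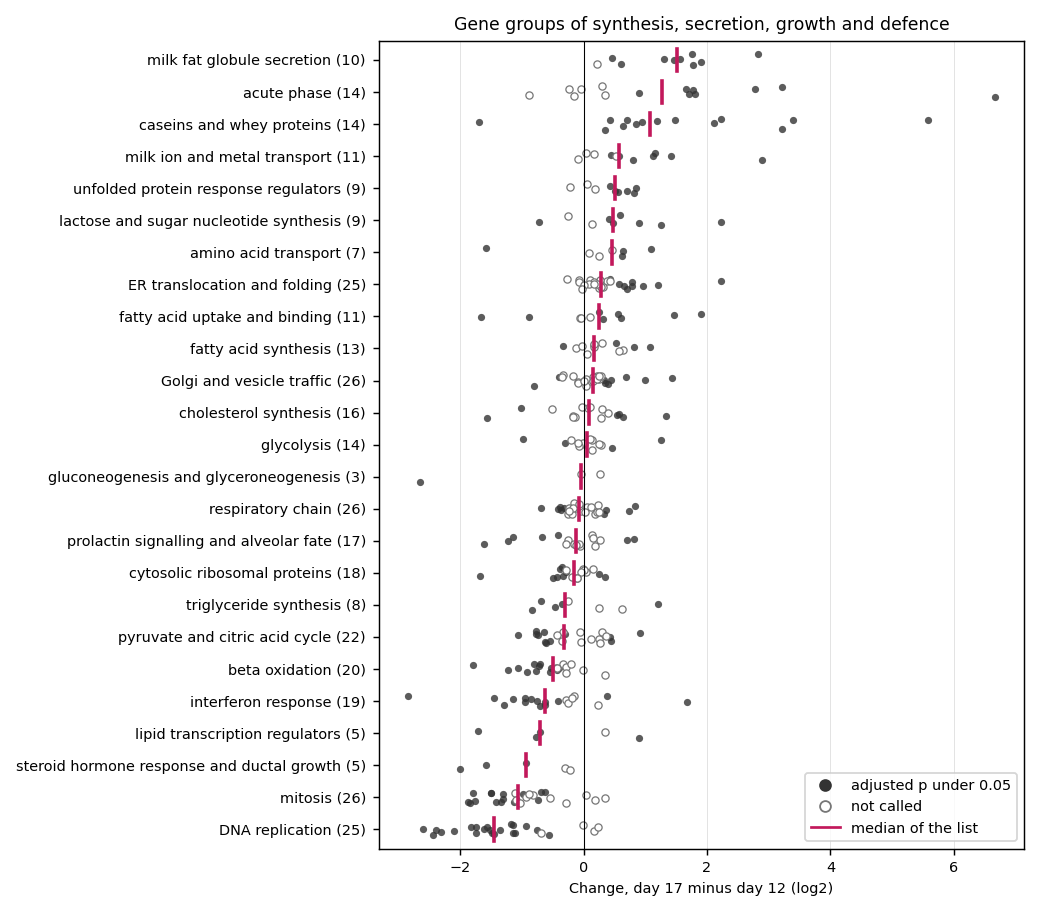
Log2 change from day 12 to day 17 (horizontal axis) of each tested gene in 25 lists, with called genes filled, uncalled genes open and the list's median as a bar; the number tested stands in brackets. The medians ran from -1.45 for DNA replication to 1.51 for milk fat globule secretion.

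Cell division genes fell. Of 32 genes of DNA replication on the array 25 were tested, and 21 fell and 0 rose, with a median of -1.45. Mcm5, of the replicative helicase, read 7.61, 8.86, 8.84 and 7.74 at day 12 and 5.49, 6.08, 6.05 and 6.22 at day 17, a fall of 2.31 (SE 0.38, adjusted p = 7.78e-05). Rrm2, the regulated subunit of ribonucleotide reductase, read 5.73, 7.74, 8.10 and 6.11 at day 12 and 4.12, 4.23, 4.56 and 5.16 at day 17. It fell by 2.40 (SE 0.50, adjusted p = 0.000796), and Rrm1, the other subunit, by 2.11. Pold1, the catalytic subunit of DNA polymerase delta, fell by 2.60 and Mcm4 by 2.44. Pold1 was tested only through its day 12 mean of 5.14. Members not called included Fen1, the flap endonuclease (-0.69, adjusted p = 0.112), and Ccne1, cyclin E1 (0.16, adjusted p = 0.169).

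Of 29 mitosis genes on the array 26 were tested, and 15 (57.7%) fell and 0 rose (median -1.07), beside 28.8% lower of all tested genes. With no filter on low values all 29 were tested, 16 fell and 3 rose, and the median was -0.98. Top2a, the topoisomerase of condensing chromosomes, fell by 1.87, Cdk1, the mitotic kinase, by 1.85 and Kif11, a spindle motor, by 1.80. Kif11 was tested only through its day 12 mean of 5.33. Mki67, the antigen Ki-67 used to count cycling cells, read 7.11, 9.36, 9.73 and 7.88 at day 12 and 6.87, 7.10, 7.98 and 7.68 at day 17. The change was -1.11 (SE 0.46, adjusted p = 0.0558), with day 12 replicates 1 and 4 inside the day 17 range. The count of 15 fell to 9 without day 12 replicate 2 and to 8 without day 12 replicate 3. Ccna2, cyclin A2, fell by 1.77 (adjusted p = 0.0192), a call lost without day 12 replicate 2 (0.0587) or 3 (0.056) or day 17 replicate 1 (0.0573), and Prc1, of the central spindle, by 1.5 (adjusted p = 0.0152), lost without day 12 replicate 3 (0.0573). Stmn1, stathmin, stood at -1.10 (adjusted p = 0.0747).

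The day 12 samples were divided in these genes. In 22 of 25 replication genes and 24 of 26 mitosis genes both replicates 1 and 4 read below both replicates 2 and 3, in 1 and 0 genes above, beside 21.8% below over all tested genes. Within day 12, then, replicates 1 and 4 were high in most milk protein genes and low in most division genes. At later stages Mcm5 averaged 8.06 at lactation day 1, 8.86 at day 2 and 5.03 at day 9. In 22 of 25 replication genes and 7 of 26 mitosis genes lactation day 2 was higher than pregnancy day 17, from the same day 17 arrays. Over all tested genes 24.2% were higher, so the mitosis count lay near that share.

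**Figure D3:**
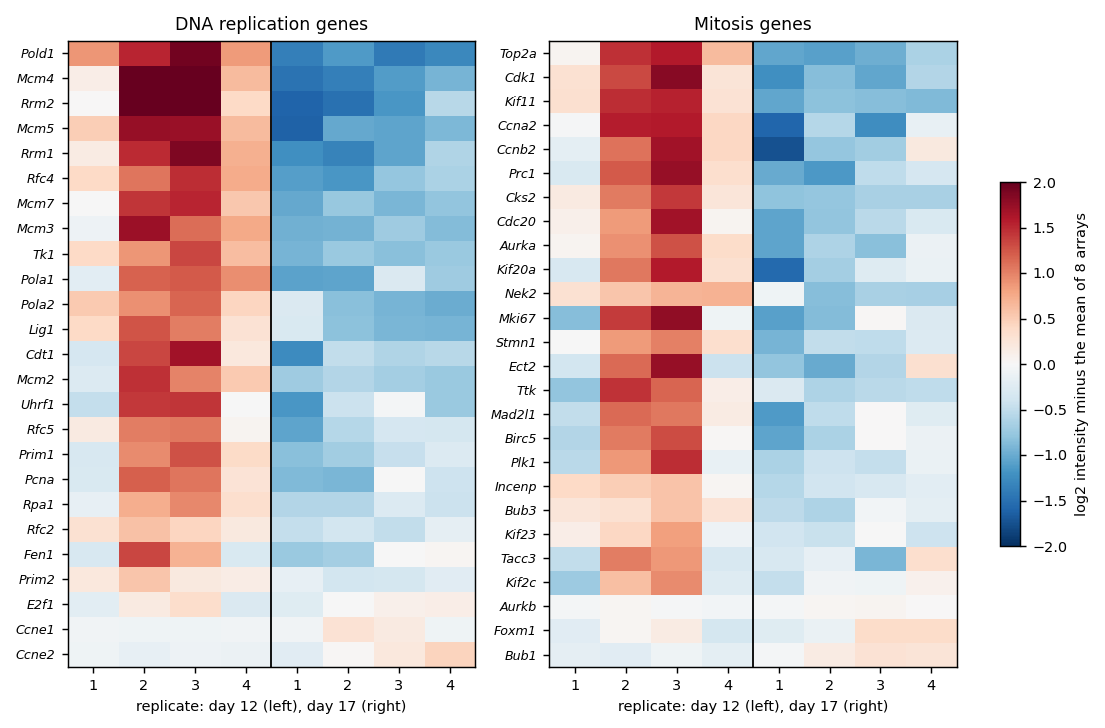
Log2 intensity of each tested DNA replication gene (left) and mitosis gene (right) minus its mean over the 8 arrays, as colour, clipped at 2 on either side, in the 4 arrays of day 12 and the 4 of day 17; genes are ordered by their change. Day 12 replicates 2 and 3 stand above replicates 1 and 4 in 22 of 25 and 24 of 26 genes.

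Genes of hormone and growth factor signalling changed singly. In the list of prolactin signalling and alveolar fate 17 of 19 genes on the array were tested. Of these 2 (11.8%) rose and 5 (29.4%) fell, near the 16.7% and 28.8% of all tested genes. The median was -0.12 (0.10 with ribosomal protein genes set equal). Stat5a, the prolactin-activated transcription factor, read 8.62, 8.18, 8.00 and 8.66 at day 12 and 8.22, 8.21, 8.42 and 8.38 at day 17, a difference of -0.06 (SE 0.22, adjusted p = 0.843). Another probe set of Stat5a differed by 0.32 (adjusted p = 0.289). Elf5 differed by 0.14 (adjusted p = 0.425) and Akt1, a kinase of milk lipid synthesis, by -0.07 (adjusted p = 0.605). Socs2, a feedback inhibitor of prolactin and growth hormone signalling, read 7.91, 7.99, 7.66 and 7.77 at day 12 and 6.31, 6.40, 6.20 and 6.0 at day 17, a fall of 1.61 (SE 0.20, adjusted p = 3.88e-06). Nfib, a partner of STAT5 at milk genes, rose by 0.71, and Itgb1, the beta-1 integrin that alveolar cells need for prolactin signalling, by 0.81 on its brightest probe set (0.20, adjusted p = 0.308, on another). The prolactin receptor gene has no probe set of its own in the annotation used here.

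Rspo1, Igf1 and other genes of growth signalling fell. Tnfsf11, RANK ligand, through which progesterone drives alveolar growth, read 4.37, 3.97, 4.61 and 4.71 at day 12 and 3.16, 3.18, 3.25 and 3.18 at day 17, a change of -1.22 (SE 0.12, adjusted p = 1.57e-07). It was tested only through its day 12 mean of 4.41, as the other stages averaged 3.19 to 3.52, under the line of 4.22. Ccnd1, cyclin D1, needed for alveolar proliferation, fell by 1.15 (adjusted p = 0.0114) and, on another probe set, by 2.08. Rspo1, a Wnt amplifier of luminal cells, read 9.34, 9.19, 9.67 and 9.52 at day 12 and 6.72, 6.67, 7.07 and 6.55 at day 17. Its fall of 2.68 (SE 0.12, adjusted p = 4.27e-11) was followed by means of 4.08, 4.39 and 4.49 at lactation days 1, 2 and 9. Tnfrsf11a, the receptor RANK, chosen after its values were seen, rose by 1.95 (adjusted p = 2.5e-08). Of 15 genes of steroid response and ductal growth on the array 5 were tested, with 0 higher, 3 lower and a median of -0.93. With no filter on low values all 15 were tested, 5 fell and 4 rose, and the median was -0.14. The direction of this list therefore depended on the filter. Igf1, insulin-like growth factor 1, fell by 2.00, Igfbp4, a binding protein of it, by 1.58 and Ghr, the growth hormone receptor, by 0.93. Igfbp3 (-0.31) was not called, Fgfr2 was not called on its brightest probe set (-0.23) but fell by 0.62 on another, and the progesterone and estrogen receptor genes Pgr and Esr1 stayed below the intensity needed for testing.

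Acute phase genes rose, and interferon-induced genes fell. Of 16 acute phase genes on the array 14 were tested, and 8 rose and 0 fell, with a median of 1.28. Saa2, serum amyloid A2, read 4.49, 3.56, 3.28 and 4.33 at day 12 and 11.05, 10.68, 10.12 and 10.48 at day 17. The change was 6.67 (SE 0.62, adjusted p = 9.59e-08), from a day 12 mean of 3.92 that lies under the line of 4.22, so its size is not exact, and another probe set of Saa2 rose by 2.07 (adjusted p = 0.000504). The brighter probe set carries the array's suffix for probes shared within a gene family, so its signal cannot be assigned to Saa2 alone. Other named genes whose brightest probe set carries this suffix include Stat5a, Itgb1, Cox4i1, Uqcrc2, Ifi204, Tie1, Sc5d and Dck. The same limit holds for them. Saa3, the form made by mammary and other epithelia, rose by 2.77, Lbp, which presents bacterial lipopolysaccharide, by 1.81, Lcn2, an iron-scavenging lipocalin, by 1.77 and Cd14, the lipopolysaccharide coreceptor, by 1.71. Ltf is also a member of this list. Orm1 (-0.89, adjusted p = 0.0622) and Hp (-0.24, adjusted p = 0.537), plasma acute phase proteins, were not called.

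Of 26 interferon response genes on the array 19 were tested, and 12 fell and 2 rose (median -0.62). Ifi27l2a, an interferon-induced mitochondrial protein, read 10.01, 10.44, 9.74 and 10.43 at day 12 and 7.62, 6.91, 7.56 and 7.14 at day 17, a fall of 2.85 (SE 0.30, adjusted p = 5.12e-07). Ifitm3, an antiviral membrane protein, fell by 1.46, and Isg15, a ubiquitin-like modifier, by 1.15. Ifi204, a DNA sensor family member, fell by 1.29, and a dim probe set of the same gene rose by 0.27 (adjusted p = 0.0207). Isg20, an exonuclease, rose by 1.67, and B2m, the light chain of class I molecules, differed by 0.23 (adjusted p = 0.311). With day 12 replicates 2 and 3 only, 7 of 18 tested genes fell; in 8 of the 19 genes replicates 1 and 4 of day 12 were above replicates 2 and 3, and in 0 below. The summed intensity of 14 macrophage markers was 2960 to 4562 at day 12 and 2536 to 3338 at day 17, and the part of macrophages in the fall of interferon genes was not tested.

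Markers of fat and stroma fell. Of 16 adipocyte markers on the array 15 were tested, and 13 fell and 0 rose (median -1.06). Nnat, an adipose protein, fell by 2.14, Plin4, a droplet coat protein, by 2.10, Cidec by 1.47 and Cebpa, the adipogenic transcription factor, by 1.33. Adipoq, adiponectin, read 12.12, 12.64, 12.31 and 11.98 at day 12 and 11.10, 11.08, 11.37 and 10.99 at day 17, a fall of 1.13 (adjusted p = 0.000591) without overlap. The leptin gene Lep differed by 0.30 (adjusted p = 0.383) and Fabp4 by 0.11 (adjusted p = 0.441). Pck1, the gluconeogenic enzyme that also makes glycerol in fat, read 10.91, 11.24, 11.13 and 10.42 at day 12 and 8.09, 8.60, 8.19 and 8.24 at day 17, a fall of 2.65 (adjusted p = 1.74e-06). It was the member called of 3 tested in the gluconeogenesis list (median -0.05), where Pcx differed by 0.26 and Pck2 by -0.05, or by -0.41 (adjusted p = 0.0196) on another probe set.

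Of 22 fibroblast and matrix genes on the array 21 were tested, and 15 fell and 0 rose (median -0.98), with a summed intensity of 24210 to 28960 at day 12 and 15650 to 16080 at day 17. The collagen VI genes Col6a3 and Col6a2 fell by 1.86 and 1.80, Pcolce, which matures collagen, by 1.72 and Dpt, dermatopontin, by 1.55. Dcn, decorin (0.38, adjusted p = 0.135), was not called, nor was Col3a1 on its brightest probe set (-0.49, adjusted p = 0.114), while another probe set of Col3a1 fell by 1.78 (adjusted p = 0.00123). Among 12 tested endothelial genes 6 fell and 2 rose (median -0.51): Vwf, von Willebrand factor, fell by 1.62 (0.02 and not called on another probe set), Tie1 by 1.16 and Eng, endoglin, by 1.06. Among 12 tested macrophage genes 7 fell and 1 rose (median -0.80). Cd68 fell by 1.84, Lyz2, lysozyme, by 1.59, Tyrobp by 1.19 and C1qb by 1.13, and the gene that rose was Cd14, which epithelial cells also make. Cd68 was tested only through its day 12 mean of 5.82, as was Vwf through 5.46. With day 12 replicates 2 and 3 only, 4 macrophage genes fell; in 9 of the 12, replicates 1 and 4 stood above replicates 2 and 3 within day 12.

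Epithelial markers did not move together. Of 15 tested luminal genes 6 (40%) rose and 4 (26.7%) fell (median 0.14), beside 16.7% and 28.8% of all tested genes. Krt7, a simple keratin, rose by 1.58 and Epcam by 0.63. Cldn3, a tight junction protein, fell by 0.81 (-0.02 and not called on another probe set) and Kit, the receptor of luminal progenitors, by 0.80. The call of Epcam (adjusted p = 0.0175) was lost without day 12 replicate 1 (0.0572). The summed intensity of the luminal markers was 11850 to 14770 at day 12 and 13380 to 16020 at day 17. Among 10 tested myoepithelial genes 1 rose and 1 fell (median 0.05). Trp63, the basal transcription factor, fell by 0.71, and Acta2, smooth muscle actin, rose by 0.44 (adjusted p = 0.0357), a call lost without day 12 replicate 2 (0.115) or day 17 replicates 3 (0.0639) or 4 (0.11). Without those same arrays, day 12 replicate 2 or day 17 replicate 3 or 4, 0 myoepithelial genes rose. Myh11 (-0.02) and Tagln (0.22), contractile genes, were not called.

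**Figure D4:**
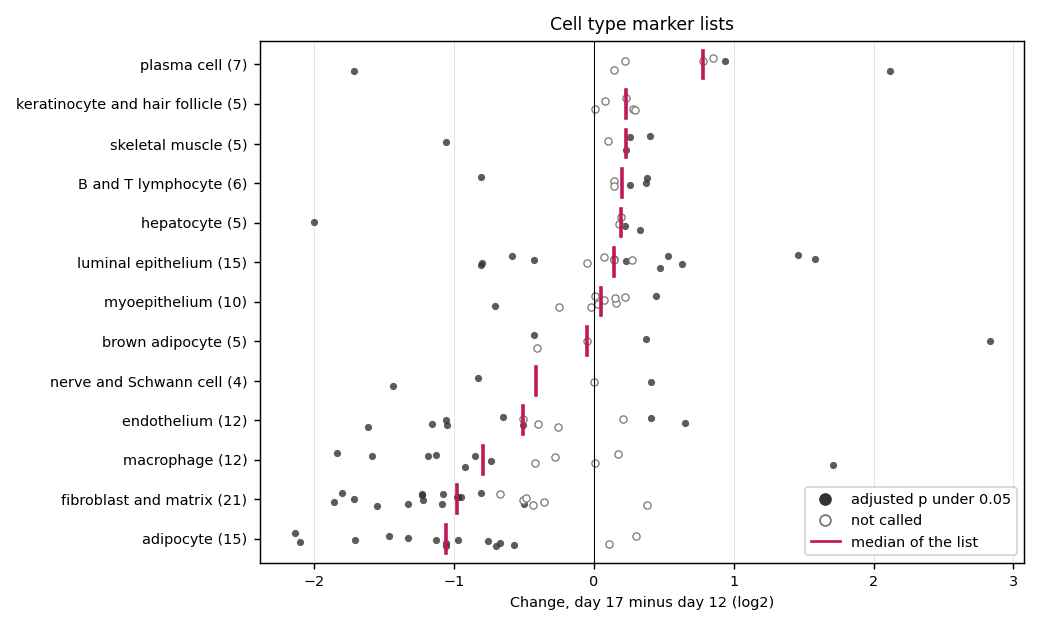
Log2 change from day 12 to day 17 (horizontal axis) of the tested members of 13 cell type marker lists, with called genes filled, uncalled genes open and medians as bars; the number tested stands in brackets. The adipocyte, fibroblast and macrophage medians were -1.06, -0.98 and -0.80, and the luminal median was 0.14.

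Other cell types were near the limit of the arrays. Of the B and T cell markers 11 of 15, of the skeletal muscle markers 13 of 14 and of the hepatocyte markers 10 of 11 lay below the intensity line for testing on both days; those tested among them reached it in lactation. The calls were mostly small rises of dim probe sets: 3 of 6 tested lymphocyte genes (median 0.20), 3 of 5 muscle genes (0.23) and 2 of 5 liver genes (0.19), counts that moved with the processing. After quantile normalization 1 of 6 lymphocyte genes rose, and only 2 muscle genes and 1 liver gene reached the line for testing, of which 0 rose. Single arrays decided these counts. Of the lymphocyte genes 1 rose without day 12 replicates 1 or 4 or day 17 replicates 3 or 4. Of the liver genes 1 rose without day 12 replicates 1 or 4 or day 17 replicates 2, 3 or 4. Of the muscle genes 1 rose without day 12 replicate 2 or day 17 replicate 3 and 0 without replicate 4 of either day. The hepatocyte marker above the line was Cyp2e1, a cytochrome P450 that fat also expresses, which fell by 2.00, and in muscle Myl1, a myosin light chain, fell by 1.06.

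Among 7 tested plasma cell genes 2 (28.6%) rose and 1 (14.3%) fell (median 0.78), beside 16.7% and 28.8% of all tested genes. Irf4, a transcription factor of plasma cells, fell by 1.72. Igha, the immunoglobulin A heavy chain, rose by 0.94 (adjusted p = 0.0448), and the call was lost without day 12 replicates 1 or 3 or any single day 17 array (adjusted p from 0.0618 to 0.168). The count of 2 was 1 without day 12 replicate 1 or day 17 replicates 2, 3 or 4. Ighm (0.85, adjusted p = 0.0872) and Jchain (0.78, adjusted p = 0.0887) were not called. Other probe sets of Ighm changed by -0.96 (adjusted p = 0.00148) to 0.23 (adjusted p = 0.594). The other gene of this list that rose was Pigr, the antibody receptor of the epithelium, which is counted in the summed plasma cell signal of 530.7 to 1308 at day 12 and 1807 to 2971 at day 17. That sum therefore does not measure plasma cells alone. The erythroid enzyme Alas2 fell by 2.23, and the globin gene Hba-a1 stood at -1.32 (adjusted p = 0.0597). Of 5 tested brown fat genes 2 rose, Cidea being 1 of them, and 1 fell (median -0.05, or 0.31 with ribosomal protein genes set equal), and 1 rose without day 17 replicate 1 or 3. Of 4 nerve and Schwann cell genes 1 rose and 2 fell, the myelin gene Pmp22 by 1.44 and the transcription factor Sox10 by 0.83 (median -0.42, or 0.19 with ribosomal protein genes set equal). Of 5 keratinocyte genes 0 were called, and 1 without day 17 replicate 1.

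Among the 10 largest rises without overlap, 7 belonged to the lists above and 3 did not: Xist, Drd4 and Abcg2. Xist, the long RNA that silences an X chromosome, read 5.02, 5.56, 6.24 and 5.77 at day 12 and 9.15, 10.09, 9.85 and 9.81 at day 17. The change was 4.08 (SE 0.29, adjusted p = 4.1e-09), followed by means of 9.05, 7.25 and 7.31 at lactation days 1, 2 and 9. Xist is a very long transcript and the day 12 arrays had less 5′ signal of pyruvate carboxylase, 2.91 to 5.31 against 6.96 to 7.62; the part of RNA length was not tested, and with day 12 replicates 2 and 3 only the change was 3.82. Drd4, annotated as a dopamine receptor, rose by 3.01 from 3.26 to 6.27 (adjusted p = 2.68e-08).

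Among the 10 largest falls were Cmbl, a hydrolase (-2.89), Nnmt, which methylates nicotinamide (-2.77), Plac8 (-2.77), Mfap2, a microfibril protein (-2.73), Dck, deoxycytidine kinase (-2.73), and Anp32a, a histone chaperone (-2.57), beside Ifi27l2a, Rspo1, Pck1 and Pold1. Nnmt read 6.74, 6.89, 4.45 and 6.58 at day 12 and 3.56, 3.28, 3.28 and 3.45 at day 17, so replicate 3 of day 12 lay between the other arrays of its day and those of day 17. Another probe set of Dck rose by 0.39 (adjusted p = 0.0197), at a level of 3.72 at day 12. Over all genes, 56 of the 2493 called had another tested probe set called in the opposite direction.

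**Figure D5:**
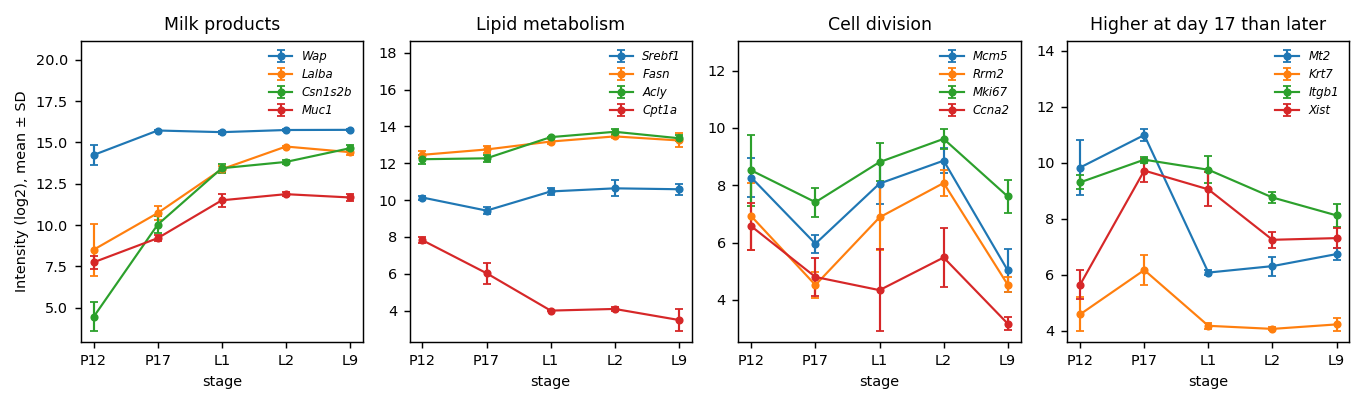
Log2 intensity (mean ± SD of 4 arrays) of 16 genes at pregnancy days 12 and 17 (P12, P17) and lactation days 1, 2 and 9 (L1, L2, L9); levels of different genes cannot be compared. Lalba and Csn1s2b were higher again at lactation day 2, Srebf1 and Rrm2 had their lower pregnancy value at day 17, and Krt7, chosen with the rest of its panel after the values were seen, read 6.17 at day 17 and 4.18 at lactation day 1.

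Day 17 and lactation day 2 were set side by side for the main genes, in a comparison that shares the day 17 arrays. Wap (0.03, adjusted p = 0.891), Csn1s1 (0.04, adjusted p = 0.664) and Fabp3 (-0.01, adjusted p = 0.955) had no called difference. Wap and Csn1s1 read 15.72 and 15.08 at day 17, close to the upper end of the scale (the highest intensity in the 20 arrays was 58520.1 units); saturation was not tested, and these values do not show that the transcripts stayed level. Lalba rose by a further 4.01, Csn1s2b by 3.79, Muc1 by 2.66 and Cidea by 2.63. Other genes that had risen by day 17 were lower again at lactation day 2: Mt2 by 4.69, Xist by 2.47, Krt7 by 2.10 and Itgb1 by 1.35. Of the 14 milk protein genes 7 were higher at lactation day 2 and 0 lower, with a median of 0.40. Over all tested genes 24.2% were higher and 25.4% lower.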

How the data were processed

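Probe set intensities of Affymetrix MG-U74Av2 mouse arrays were deposited by the authors as linear intensity values made with GCRMA, per the submitters' processing notes. The version and settings of GCRMA, and the set of arrays it was run on, are not stated there. Of 12488 probe sets, 66 controls were left out, and 10833 of the others carry a single gene in the platform annotation, 396 several and 1193 none; no gene was named from the last 2 kinds. Values below 1 were set to 1 (131 in the 20 time course arrays) and log2 was taken. Probe sets whose highest stage mean reached the median of all values (18.6 intensity units, 4.22 on the log2 scale) were tested with limma 3.58.1 in R 4.3.3, with group means of the 5 stages, moderated variances and Benjamini-Hochberg adjustment; a call is an adjusted p under 0.05. A gene is its probe set with the highest mean. The number of arrays, 4 per stage, limits the precision, and intensities give no depth.

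The text names the 10 called genes with non-overlapping arrays that rose most and the 10 that fell most, as many as 5 called and 2 uncalled members per list, and a short fixed set (Prlr, of this set, had no probe set). Further genes of the lists, other probe sets of named genes and Tnfrsf11a were picked with their values in view. The 39 lists (742 genes, 593 with a probe set) and the samples were chosen with earlier results of these data known. The fit was tested on simulated data. Alternatives were other filters, an offset, other normalizations, other sets of arrays, a replicate block, other variance moderation and the mean over a gene's probe sets; the use of day 12 replicates 2 and 3 alone was added after seeing the data. Promoter windows came from the RefSeq table of GRCm38.p6, and protein sequences were not used here.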

Additional observations from a re-analysis of the deposited data

Results flagged for a closer look

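Among 484 groups of 4 arrays (a named gene on a day), 29 held an array far from the others by Dixon's criterion, and chance flags about 1 in 20 such groups. Day 12 replicate 3 was low in Nnmt at 4.45 (the others 6.58 to 6.89), in Xdh at 6.53 (8.00 to 8.11), in Rab18 at 8.95 (9.46 to 9.50), in Acsl4 at 7.50 (8.13 to 8.18), in Lep at 6.59 (7.25 to 7.34) and in Elf5 at 10.69 (11.15 to 11.16). Xdh and Rab18 belong to the milk fat globule genes, which rose by day 17. Day 12 replicate 1 was high in Fgfr2 at 5.92 (4.88 to 5.05), Slc7a7 at 5.59 (4.59 to 4.67), Slc39a8 at 7.11 (6.32 to 6.44) and Atf6 at 5.47 (4.93 to 5.00), and low in Fabp4 at 5.86 (5.98 to 6.0) and Cox6c at 12.22 (12.43 to 12.44). Day 12 replicate 2 was high in Acadm at 9.34 (9.02 to 9.07) and Idh1 at 7.79 (7.09 to 7.20) and low in Acta2 at 10.46 (10.81 to 10.86). Day 12 replicate 4 was low in Slc27a1 at 8.51 (9.32 to 9.39) and high in the protease gene Ctss at 9.31 (8.37 to 8.52).

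At day 17, replicate 1 was high in Vwf at 4.78 (3.46 to 3.63), Lcn2 at 12.91 (12.40 to 12.47), Igfbp4 at 5.79 (5.35 to 5.38) and Dlat at 8.11 (7.91 to 7.92), and low in Ndufa5 at 9.35 (9.81 to 9.89). Replicate 2 was high in Hba-a1 at 12.24 (11.34 to 11.45) and low in Pdha1 at 10.53 (10.68 to 10.69). Replicate 3 was high in Nr1h3 at 6.27 (5.69 to 5.78) and Cyp2e1 at 9.27 (9.05 to 9.08) and low in the myelin gene Mbp at 5.33 (5.62 to 5.66). Replicate 4 was low in Trp63 at 3.64 (4.33 to 4.42) and Alas2 at 3.37 (3.77 to 3.81). No explanation was tested for these arrays.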

How the results depend on the processing

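Of 242 named genes, 2 reversed, both under quantile normalization: Csn1s1 from 0.35 to -0.11 and Rplp0 from 0.01 to -0.39; 70 further sign changes were of values called on neither side. Of 171 called genes, 26 lost the call in at least 1 of 8 fits without a single array. Probe sets higher and lower at day 17, 1322 and 1923, were 4624 and 2249 with no filter, 671 and 1219 with a filter at the 75th percentile (6.12), 3288 and 1229 with ribosomal protein genes set equal, 827 and 1667 in a fit of the 8 arrays alone, and 1015 to 1337 and 1731 to 1938 without single arrays. The replicate numbers gave no pairing (same-number correlations from -0.23 to 0.26); the replicate block gave 1319 and 1928, and among list counts moved that of keratinocytes to 1.

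The following list counts moved by over 1.5 times, in the direction given in the report, and the cause was not tested. With no filter, more dim genes are tested, and steroid response had 5 falls, beside 4 rises. In that fit rises numbered 14 for endoplasmic reticulum, 2 for myoepithelium, 7 for lymphocytes, 7 for muscle, 6 for hepatocytes and 5 for keratinocytes. With the 75th percentile filter, fewer genes are tested, and cholesterol synthesis had 2 rises, the unfolded protein response 3, brown fat 1, and lymphocytes, muscle and hepatocytes 0, while DNA replication had 12 falls, mitosis 8 and erythrocytes 0. With an offset of 16, lymphocytes, plasma cells, muscle and hepatocytes had 1 rise each. Quantile normalization gave 2 falls for triglyceride synthesis and rises of 14 for endoplasmic reticulum, 2 for myoepithelium, 1 for lymphocytes, 1 for keratinocytes and 0 for muscle and hepatocytes. Equal ribosomal protein genes gave falls of 3 for prolactin signalling, 2 for triglyceride synthesis, 2 for ribosomal proteins and 1 for the respiratory chain. The same scaling gave rises of 6 for fatty acid synthesis, 4 for glycolysis, 5 for amino acid transport, 19 for endoplasmic reticulum, 13 for Golgi, 2 for myoepithelium, 5 for lymphocytes, 6 for plasma cells, 5 for muscle, 7 for hepatocytes and 6 for keratinocytes. The 8 arrays alone gave falls of 4 for ribosomal proteins, 3 for the respiratory chain and 2 for erythrocytes, and rises of 1 for lymphocytes, 4 for plasma cells and 0 for muscle and hepatocytes. Without lactation day 9 replicate 1, erythrocytes had 2 falls and hepatocytes 1 rise. With day 12 replicates 2 and 3 only, falls numbered 4 for ribosomal proteins, 3 for the respiratory chain, 7 for interferon response, 4 for macrophages and 1 for nerve. In that fit rises numbered 5 for endoplasmic reticulum, 1 for brown fat, lymphocytes, plasma cells and hepatocytes, and 0 for myoepithelium and muscle. The mean over probe sets gave 7 rises for fatty acid synthesis, 1 for keratinocytes, and falls of 2 for triglyceride synthesis and 3 for ribosomal proteins.

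Without single arrays the counts ran from 2 to 5 for fatty acid synthesis, 2 to 5 for triglyceride synthesis, 1 to 4 for the respiratory chain, 8 to 20 for mitosis and 4 to 7 for Golgi. For the dim marker lists they ran from 1 to 2 for brown fat, 0 to 1 for myoepithelium and keratinocytes, 1 to 3 for lymphocytes, plasma cells and hepatocytes, and 0 to 3 for muscle. Milk protein genes numbered 13 rises and milk fat globule genes 9 in each of the 8 fits. Dim probe sets limit what could be tested: 11 of 15 lymphocyte markers stood below the line on both days.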

Other observations

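Several genes outside the lists had large rises at day 17 and were chosen for mention after their values were seen. Il6ra, the interleukin 6 receptor, rose by 2.69, Defb1, an epithelial defensin, by 2.62, Arg2, the mitochondrial arginase, by 2.58, Folr1, the folate receptor, by 2.25, Cd59a, an inhibitor of complement, by 2.08, and Fzd4, a Wnt receptor, by 2.00. Of these, Defb1 read 6.03 at day 17 and 3.54 at lactation day 2.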
